A study of Mus musculus with 8 samples.

Results

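The secreted lipocalins of the mouse vomeronasal organ were followed across 8 RNA sequencing libraries, with Lcn3, Lcn4, Obp2a, Obp2b, Lcn11, Lcn13 and Lcn14 as the 7 names searched among the 27532 genes of the deposited table. Rows were found for 5 of the 7 names. Lcn13 and Lcn14 have no row of their own, and the RefSeq gene table gives them as synonyms of Obp2a and Obp2b, so their values are those of the Obp2 pair. The organ came from adult mice, 4 heterozygous (het) and 4 knockout (KO) for Tex15; wild-type organs were not analysed here. The labels describe the allele no further, and each library carried its own animal number.

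Heterozygous replicate 1 was a male of 11.4 weeks, replicate 2 a female of 14.6 weeks, and replicates 3 and 4 were females of 11.9 weeks. Knockout replicate 1 was a female of 11.9 weeks, replicates 2 and 3 were males of 11.9 weeks, and replicate 4 was a male of 12.1 weeks. Heterozygous replicates 1 and 2 carried earlier animal numbers than the other 6 animals, which were numbered in the 7100s, so genotype, sex and animal number are partly tangled. Tex15 stood at 2.27 to 2.81 TPM in the heterozygous and 0.870 to 1.23 TPM in the knockout libraries. TPM is a read count divided by gene length and scaled so that each library sums to 1000000, so levels are also given as a percent of all TPM.

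Lipocalins are small secreted proteins folded into a barrel with a pocket for hydrophobic molecules. In the mouse nose they are made by glands and released into mucus, where members of the family carry odorants and pheromones. Lcn3 and Lcn4 were first described as vomeronasal secretory proteins, made by glands of the vomeronasal organ and the nasal septum. Obp2a and Obp2b are odorant-binding proteins of the same branch, and Lcn11 is a less studied relative in the same gene cluster.

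All 5 genes lie on chromosome 2 (GRCm38). Obp2a (chr2:25700043-25703326), Obp2b (chr2:25737009-25740097), Lcn3 (chr2:25765569-25768099) and Lcn11 (chr2:25777017-25780279) follow each other on the plus strand within 80.2 kb, a span that holds 6 listed genes with these 4. Lcn4 (chr2:26667674-26671282, minus strand) starts 887 kb beyond the end of Lcn11. Each has 7 exons apart from Lcn11, which has 6.

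The bases upstream of each gene are shown because 4 of the 5 genes shared their pattern across libraries, while the low r of Lcn11 with them rests on 1 library, as given with its values. Each line gives the 100 bases before the more upstream of the RefSeq and GENCODE starts, read 5′ to 3′ along the gene from RefSeq's GRCm38.p6 promoter table, with ATAAAG in capitals. These letters were chosen by eye from the promoters of these genes, so how many members hold them is set by that choice.
Obp2a: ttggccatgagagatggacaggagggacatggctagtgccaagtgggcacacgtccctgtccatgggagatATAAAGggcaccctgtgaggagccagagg
Obp2b: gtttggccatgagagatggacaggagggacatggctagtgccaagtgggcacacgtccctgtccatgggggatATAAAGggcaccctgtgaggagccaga
Lcn3: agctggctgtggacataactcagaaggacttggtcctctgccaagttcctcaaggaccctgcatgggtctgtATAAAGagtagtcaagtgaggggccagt
Lcn4: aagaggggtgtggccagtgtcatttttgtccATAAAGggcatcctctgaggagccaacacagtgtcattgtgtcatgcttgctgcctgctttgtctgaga
Lcn11: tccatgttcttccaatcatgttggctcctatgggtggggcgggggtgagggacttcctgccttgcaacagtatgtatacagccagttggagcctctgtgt
These windows are Obp2a chr2:25699943-25700042, Obp2b chr2:25736907-25737006, Lcn3 chr2:25765433-25765532 and Lcn11 chr2:25776917-25777016 on the plus strand, and Lcn4 chr2:26671283-26671382 on the minus strand.

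From these starts, the ATAAAG match began 29 bases upstream in Obp2a, 28 in Lcn3, 27 in Obp2b and 69 in Lcn4, and these letters are not in the Lcn11 window. For Obp2a the start is that of GENCODE, and from the RefSeq start the match lay at position -60. In Obp2a, Obp2b and Lcn3 it overlapped a TATAAA match. Over the whole promoter windows (250 bases before to 50 after the RefSeq start, both strands), ATAAAG was present in 13.5% of 32851 promoters, and nothing is read from its presence in 4 of the 5 members, from which it was chosen. The other motifs were also listed after these promoters had been seen. TATAAA was present in 3 of 5 members and 13.6% of promoters, CANNTG in 5 of 5 and 72.3%, and AACAAT in 1 of 5 and 10.7%. The promoter windows of Obp2a and Obp2b aligned over 267 bases with 98.5% identity, so their matches are not separate cases. Lcn4 shared the run ATAAAGGGCA with both of them.

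The near-copy of Obp2a and Obp2b continued into exon 1, where 99.3% of 135 aligned bases were identical, and then stopped. Exons 2 to 7 were 52.7% to 70.9% identical, and the whole transcripts 71%. The longest run shared by both transcripts had 130 bases, so every stretch of 150 bases, the length of a read, was unique to its gene in GENCODE M21, for these 2 and the other 3 members. Shorter or trimmed reads within exon 1 could still be shared, and how such reads were counted is not given in the sources used here.

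The lipocalins took a large part of the messenger RNA of the organ. Obp2b was the most abundant listed gene in 6 of 8 libraries and Obp2a in 1, and in heterozygous replicate 2 neither was. The 5 genes together took 24.8%, 5.87%, 10.7% and 20.6% of all TPM in heterozygous replicates 1 to 4 and 23.8%, 20.54%, 12.7% and 18.1% in knockout replicates 1 to 4. The lowest library was heterozygous and so was the highest, and the knockout values lay between them. In bulk tissue, fewer gland cells and less RNA per gland cell cannot be told apart.

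Obp2b took 9.36%, 2.19%, 3.93% and 8.01% of all TPM in heterozygous replicates 1 to 4 and 9.37%, 7.89%, 4.91% and 6.49% in knockout replicates 1 to 4. Obp2a took 9.27%, 1.91%, 3.75% and 6.74% in the heterozygous and 8.18%, 6.70%, 4.61% and 7.09% in the knockout libraries, in the same order. For both, heterozygous replicate 2 was the lowest library, heterozygous replicate 3 the next lowest and knockout replicate 3 the lowest knockout. The groups overlapped.

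Lcn3 took 3.78%, 0.808%, 1.86% and 3.76% in the heterozygous and 4.02%, 3.28%, 2.14% and 3.01% in the knockout libraries. Lcn4 took 1.69%, 0.525%, 1.18% and 2.12% in the heterozygous and 2.09%, 2.10%, 0.976% and 1.47% in the knockout libraries. Both were lowest in heterozygous replicate 2, and both overlapped between the genotypes. Over the 8 libraries the means were 6.52% ± 2.63 (SD, n = 8) for Obp2b, 6.03% ± 2.43 for Obp2a, 2.83% ± 1.13 for Lcn3 and 1.52% ± 0.592 for Lcn4. The means of Obp2b and Obp2a differed by less than the SD between libraries. Within libraries, Obp2b was the higher of the pair in all but knockout replicate 4. Lcn3 and Lcn4 had lower means than either.

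Lcn11 was a minor member with a far wider range. It took 0.735%, 0.438%, 0.00665% and 0.0115% of all TPM in heterozygous replicates 1 to 4 and 0.142%, 0.565%, 0.0161% and 0.0430% in knockout replicates 1 to 4. Its highest library stood 110 times above its lowest, against 4.03 to 4.98 times for the other members. It was high in heterozygous replicates 1 and 2 and knockout replicate 2, intermediate in knockout replicate 1 and low in the remaining 4. The lowest value still rested on about 398 reads, as recovered from the table.

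**Figure D1:**
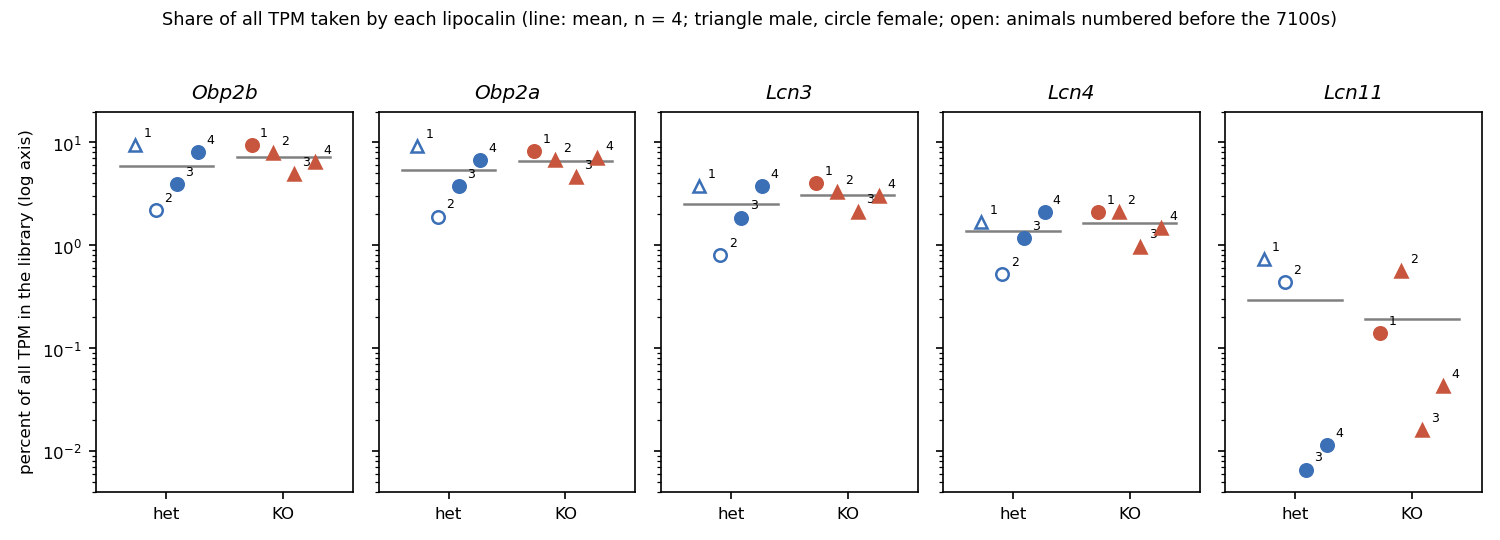
Percent of all TPM taken by each of the 5 lipocalins (y, log axis) in heterozygous (blue) and knockout (red) libraries, 1 point per animal with its replicate number, and a line at each group's mean (n = 4). Triangles are males, circles females, and open symbols the 2 animals numbered before the 7100s. Heterozygous replicate 2 was the lowest for Obp2b, Obp2a, Lcn3 and Lcn4 but among the high libraries for Lcn11.

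The proportions among Obp2b, Obp2a, Lcn3 and Lcn4 stayed nearly fixed while their sum moved 4.44-fold between libraries. Of the summed TPM of these 4 genes, Obp2b made up 38.6% ± 1.49 (SD, n = 8), Obp2a 35.7% ± 2.30, Lcn3 16.6% ± 1.03 and Lcn4 9.15% ± 1.45. Lcn3 took 14.9% to 18.2% of the sum in every library, and Lcn4, which moved most in proportion, 7.00% to 11.03%. By genotype, Lcn3 made up 16.5% ± 1.54 in the heterozygous and 16.7% ± 0.271 in the knockout libraries (SD, n = 4 each), and Lcn4 9.49% ± 1.75 and 8.81% ± 1.24. The 4 proportions each overlapped between the genotypes.

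The Obp2a to Obp2b ratio is of interest because the promoters of the pair are nearly the same. It was 0.927 ± 0.0855 over the 8 libraries (SD, n = 8), with 0.842 in heterozygous replicate 4 as the lowest and 1.09 in knockout replicate 4 as the highest. Knockout replicate 4 was the library in which Obp2a, not Obp2b, ranked first. The Lcn3 to Lcn4 ratio ranged from 1.54 to 2.24.

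**Figure D2:**
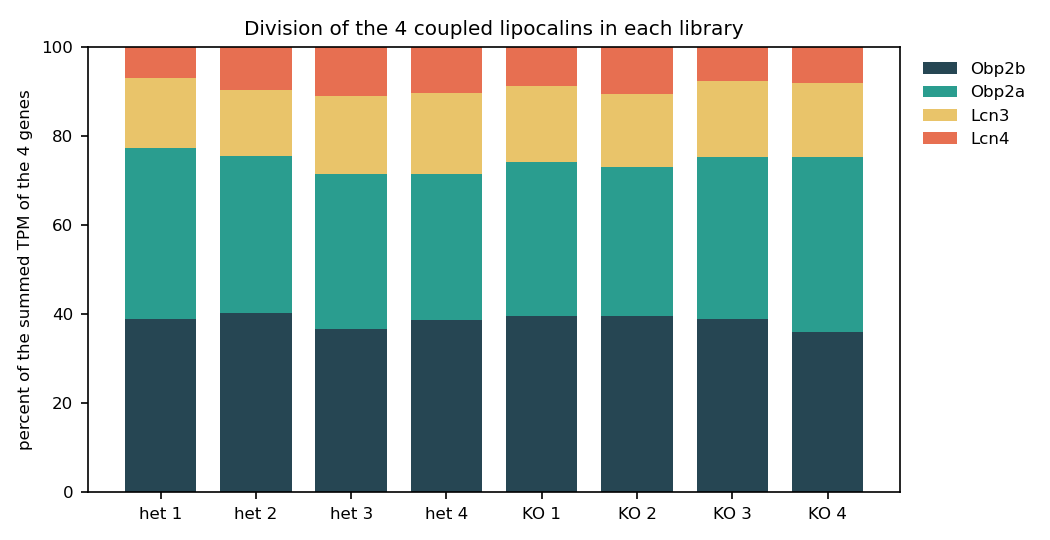
Stacked bars of the percent of the summed TPM of Obp2b, Obp2a, Lcn3 and Lcn4 (y) taken by each gene in each of the 8 libraries (x, het 1 to 4 and KO 1 to 4). The divisions sit at nearly the same heights in all 8 bars, including het 2, where the sum was 5.43% of all TPM, and het 1, where it was 24.1%.

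Each pair of these 4 genes rose and fell together across the 8 libraries. On the log2(TPM + 0.5) scale, Pearson's r was 0.91 to 0.99 over the 6 pairs, with a median of 0.97. The closest pair was Lcn3 and Obp2b, with r = 0.99 and Spearman's rho = 1 (exact permutation over 40320 pairings, two-sided, p = 2.48e-05 and 4.96e-05, the smallest such pairings can give). Adjusted over all 10 pairs of members by the Benjamini-Hochberg method, these were 0.000248 and 0.000496.

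The loosest pair was Lcn4 and Obp2a, with r = 0.91 (exact permutation p = 0.00610, adjusted 0.0102) and rho = 0.60 (exact permutation p = 0.132, adjusted 0.220). Without its 2 libraries farthest from the median of Lcn4, heterozygous replicate 2 and knockout replicate 3, r fell to 0.65, so the relation of this pair rests largely on them. Over the 6 pairs, r without the 2 farthest libraries was 0.65 to 0.97. Within the 6 animals of the 7100s r was 0.81 to 0.99 (exact permutation p = 0.00139 to 0.0486, unadjusted), and with the genotype means removed it was 0.90 to 0.99.

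The 4 genes are parts of 1 total, and libraries differed in what made up the rest of it. With libraries scaled by the median ratio of their tested genes, r was 0.91 to 0.99. On that scale the summed level was 31.5, 8.19, 7.73 and 18.7 in heterozygous replicates 1 to 4 and 24.7, 23.2, 10.6 and 13.7 in knockout replicates 1 to 4, in percent of all TPM divided by the size factor. Heterozygous replicates 2 and 3 were then nearly equal, and heterozygous replicate 1 stayed the highest.

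Lcn11 did not follow the other members over all 8 libraries as deposited. Its r with them was -0.02 to 0.12 and its rho 0.10 to 0.38 over 4 pairs (exact permutation p = 0.784 to 0.983 for r and 0.360 to 0.840 for rho, all adjusted to 0.475 or more). The 2 libraries farthest from the median of the partner gene weighed heavily, and without them r was 0.44 to 0.65. It was 0.57 to 0.67 within the 7100s animals (exact permutation p = 0.15 to 0.228, n = 6) and 0.40 to 0.53 after median-ratio scaling.

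Without heterozygous replicate 2 alone, r of Lcn11 with the 4 was 0.53 to 0.76, with a median of 0.69 (n = 7), and without any other single library its median was -0.11 to 0.17. This check was added after the values had been seen, and the low r over all 8 libraries thus rests on that library. It held the least of the 4 other lipocalins and the third highest Lcn11, at 4384 TPM. Heterozygous replicate 4 was the reverse, with 20.6% of its TPM in the other 4 genes and Lcn11 at 115 TPM. The Lcn3 to Lcn11 ratio accordingly ran from 1.84 in heterozygous replicate 2 to 326 in heterozygous replicate 4.

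Lcn11 instead moved with the Obp1 and Mup lipocalins. Obp1a, an odorant-binding protein encoded on the X chromosome, stood at 47703, 57184, 110 and 116 TPM in heterozygous replicates 1 to 4 and at 9749, 33248, 129 and 1258 TPM in knockout replicates 1 to 4. Mup4, a major urinary protein made in nasal glands as well as elsewhere, stood at 29068, 13492, 45.1 and 48.7 TPM and at 2218, 19956, 59.1 and 733 TPM. Both were high in the libraries in which Lcn11 was high and intermediate in knockout replicate 1, as Lcn11 was.

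Over the 8 libraries, r of Lcn11 was 0.99 with Obp1a, Mup4 and Mup5 and 0.98 with Obp1b, and it was 0.98 to 0.99 within the 7100s animals. These pairs were looked at after their values had been seen and are given as a description, with no test. The 10 genes most like Lcn11 by r, which include these 4 with Klk14, BC051076, Gm14744, Gm14743, Gm14750 and 5430402E10Rik, summed to 22.0%, 26.4%, 0.0532% and 0.0575% of all TPM in the heterozygous and to 4.82%, 17.9%, 0.0652% and 0.689% in the knockout libraries. Where that set was high, the other genes of the library had less of the total. Among 11582 genes of at least 5 TPM, 18 had an r over 0.8 with Lcn11, and 43.3% had one under -0.8.

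**Figure D3:**
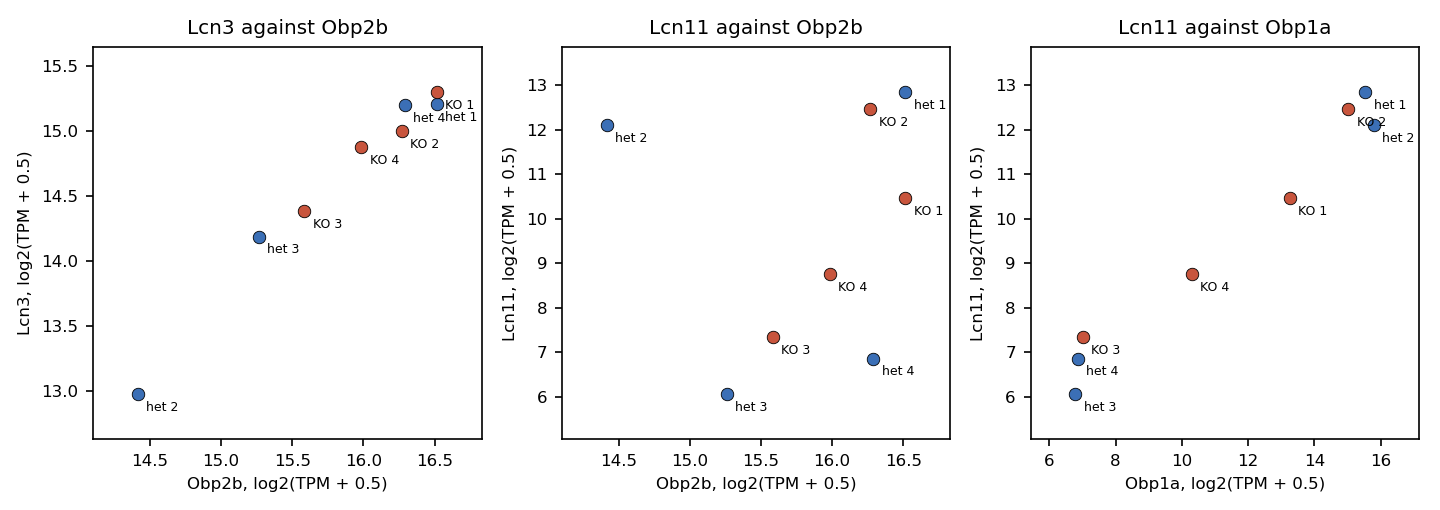
Log2(TPM + 0.5) of Lcn3 against Obp2b (left), Lcn11 against Obp2b (middle) and Lcn11 against Obp1a (right), 1 point per library, heterozygous in blue and knockout in red. The left and right panels fall along a line (r = 0.99 each), and in the middle panel het 2 lies at the upper left, away from the rest.

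Over all 8 libraries, the spread between libraries was larger than the difference between the genotype means. The SD of log2(TPM + 0.5) over the 8 libraries was 0.70 for Lcn4, 0.73 for Obp2b, 0.75 for Obp2a, 0.78 for Lcn3 and 2.72 for Lcn11, where the median of the 20305 genes tested was 0.43. Against all genes tested, these SDs ranked at the 89.1st percentile for Lcn4, the 90.5th for Obp2b, the 91.0th for Obp2a, the 92.2nd for Lcn3 and the 99.9th for Lcn11. Among genes with a mean within 3-fold of their own, Lcn3 ranked at the 61.1st percentile of 18 genes, Lcn4 at the 52.6th of 19, Obp2a at the 40th of 5, Obp2b at the 25th of 4 and Lcn11 at the 94.0th of 84. Each set counts the gene itself and any other member in that range. Those of Obp2a and Obp2b both hold Obp2a, Obp2b and Lcn3, with means of 60328, 65178 and 28315 TPM. The 4 coupled genes were thus ranked partly against each other, and nothing is read from these ranks. The spread of Lcn11 was near the top of its 84 genes.

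The pooled SD within a genotype was 0.73 to 0.79 for the 4 coupled genes and 2.93 for Lcn11. The difference of the group means as deposited was 0.38 to 0.50 for the 4 and 0.29 for Lcn11, in each case smaller than the SD within a genotype. Without heterozygous replicate 2 the median SD of the 4 fell from 0.74 to 0.45, so this 1 library, also the oldest animal, carried much of their spread. Its share of olfactory supporting cell markers was 0.536% of all TPM against 0.109% to 0.185% in the other 7 libraries. The part of age or of other tissue in the result was not tested.

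No lipocalin passed the test for genotype. In limma on log2(TPM + 0.5), with genotype and sex as terms, 0 of 5 members were called at an adjusted p under 0.05 and 0 at an unadjusted p under 0.05, and limma-voom on reads recovered from the table also called 0. Of all genes tested, 0.586% were called, 43 higher and 76 lower in the knockout, or 27 and 126 after median-ratio scaling. The heterozygous and knockout libraries overlapped for 5 of 5 members, where 1.4% of genes did not overlap.

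Relative to the median gene, which rose by 0.19 in the knockout as fitted, the log2 fold change of knockout over heterozygous was 0.12 (SE 0.45) for Obp2b and 0.08 (SE 0.45) for Obp2a. It was 0.17 (SE 0.47) for Lcn3 and 0.16 (SE 0.44) for Lcn4. For Lcn11 it was -0.79 (SE 1.29), and each member had an adjusted p of 0.9995. SE and p belong to the fitted coefficient against no change, which was 0.31, 0.27, 0.36, 0.36 and -0.60 for Obp2b, Obp2a, Lcn3, Lcn4 and Lcn11, and this holds wherever a relative value is given with them. A 2-fold change is 1 unit on this scale, which is less than the SE of Lcn11.

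The signs were not stable either. The genotype term gives a weight of 0.5 to knockout replicate 1 and the same to heterozygous replicate 1, each the only animal of its sex in its group. Without knockout replicate 1 the values for Obp2b, Obp2a, Lcn3 and Lcn4 were -1.03, -1.08, -0.91 and -0.68, and without heterozygous replicate 1 they were 1.26, 1.24, 1.25 and 1.004. No member was called in either case.

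**Figure D4:**
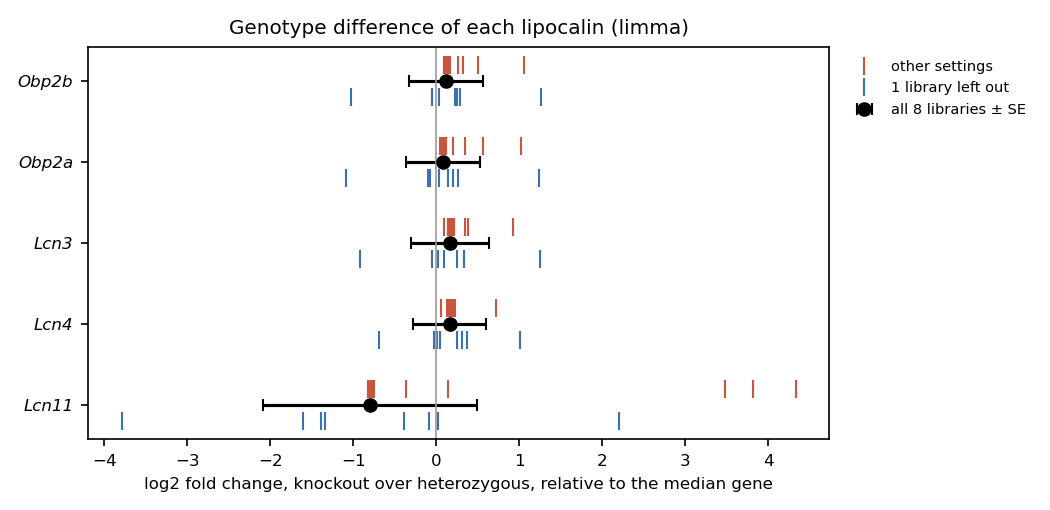
Log2 fold change of knockout over heterozygous libraries relative to the median gene (x) for each lipocalin (y), from limma with genotype and sex over 8 libraries (black, ± SE). Red ticks are other settings of the analysis and blue ticks fits with 1 library left out. The bars of Obp2b, Obp2a, Lcn3, Lcn4 and Lcn11 all cross 0, and ticks fall on both sides of 0 for each gene.

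Lcn11 was called in 1 alternative, a fit to part of the animals. Within the 7100s, it stood at 66.5 and 115 TPM in the heterozygous and at 1415, 5652, 161 and 430 TPM in the knockout libraries. The groups did not overlap there, as was the case for 11% of the genes tested in those 6 libraries. With the sex term, its relative log2 fold change was 4.33, or 4.01 as fitted (SE 0.68, limma adjusted p = 2.18e-05 for the fitted value). In that fit 1.8% of genes were called, and the knockout side of the difference comes from replicate 1 alone, the only female among them. That lone library adds no spread of its own, so this call has no replicate check on the knockout side. Limma moderates its SE here, drawing also on the variance of other genes. The log2 SD of Lcn11 within the 7100s was 2.22 over the 4 knockout and 0.56 over the 2 heterozygous libraries. The SE of 0.68 and its p thus do not measure the spread of Lcn11 in these libraries. Without the sex term, which gives the 4 knockout libraries equal weight, it was 3.48 (SE 0.91, limma adjusted p = 0.206). With all 8 libraries and a term for animal series it was 3.82 (SE 1.21, limma adjusted p = 0.482). The 2 heterozygous animals left out of the 7100s fit held the highest and the third highest Lcn11 of all libraries, at 7347 and 4384 TPM.

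Sex was examined because several nasal lipocalins carry pheromones. In the same limma fit, 0 of 5 members were called by sex and 0 had an unadjusted p under 0.05, against 0.0492% of all genes tested called, and limma-voom called 0. Obp2a had a male minus female log2 difference of 0.54 (SE 0.45) relative to the median gene, and Lcn3, Lcn4 and Obp2b had 0.35, 0.13 and 0.39. For Lcn11 it was 1.86 (SE 1.29, adjusted p = 0.99995). These signs were not stable either, and over 19 alternatives the values ran from -0.63 to 1.70 for Obp2a, -0.73 to 1.44 for Lcn3, -0.72 to 0.98 for Lcn4, -0.76 to 1.55 for Obp2b and -1.14 to 4.86 for Lcn11. For Lcn11, the 4 males stood at 7347, 5652, 161 and 430 TPM and the 4 females at 4384, 66.5, 115 and 1415 TPM, so the sexes overlapped between 161 and 4384 TPM, with the 2 highest libraries male and the 2 lowest female.

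Markers of seromucous gland cells were measured beside the lipocalins to check the label. All 15 were listed and 15 were tested, and none of the defining genes was at 0 in any library. Ltf (lactotransferrin), Dmbt1 (a mucosal scavenger protein) and Wfdc18 were the most abundant, with Wfdc18 at 3170 to 11613 TPM. The 15 genes summed to 1.09%, 0.483%, 1.19% and 1.56% of all TPM in heterozygous replicates 1 to 4 and to 1.82%, 1.15%, 1.91% and 1.496% in knockout replicates 1 to 4. Heterozygous replicate 2 was again the lowest. Elsewhere the order was not the same, and the 4 coupled lipocalins stood at 22.1 times the gland sum in heterozygous replicate 1 and at 6.62 times in knockout replicate 3.

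By genotype, limma called 0 of the 15 gland markers (2 at an unadjusted p under 0.05, 0 by limma-voom), with a median of 0.10 relative to the median gene. The secretory route, a list of 33 genes of protein export, had 0 called (0 unadjusted, 0 by limma-voom) and a median of 0.05. Its sum ranged from 2589 to 4653 TPM in the heterozygous and 3236 to 4180 TPM in the knockout libraries, a narrower range than that of the lipocalins. Of 14 gene lists, 13 had 0 genes called by limma and by limma-voom, with 0 to 2 genes each at an unadjusted p under 0.05.

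Marker sums of other cell types were read for the same libraries. Mature vomeronasal neuron markers summed to 453 TPM in heterozygous replicate 1 and to 941 to 1504 TPM in the other 7 libraries. This gap was that of 1 gene, Omp, the marker protein of mature chemosensory neurons, which stood at 66.6 TPM in heterozygous replicate 1 and at 571 to 943 TPM elsewhere. The other 7 markers listed summed to 387 TPM in that library, within the 370 to 561 TPM of the others, and 0 of the 7 were lowest in it. Trpc2 has no row in the table. Main olfactory neuron markers summed to 51.2 to 92.9 TPM, cartilage markers to 16.5 to 56.3 TPM, muscle and bone markers to 868 to 3053 TPM, ciliated cell markers to 323 to 850 TPM and plasma cell markers to 3174 to 12656 TPM.

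**Figure D5:**
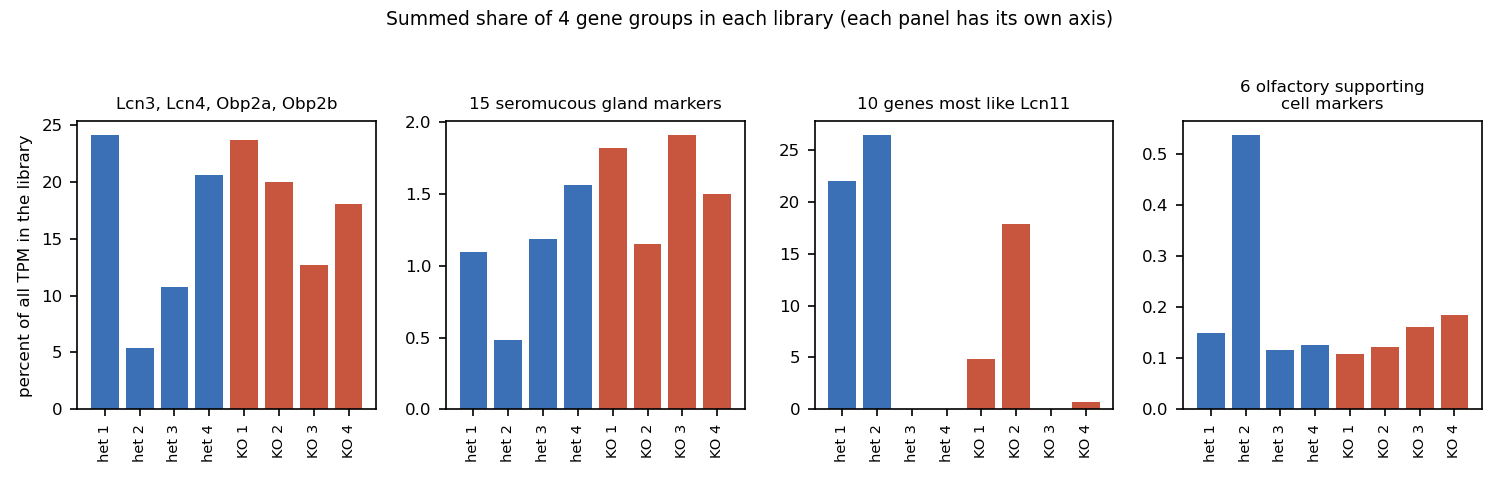
Summed percent of all TPM (y, a separate axis in each panel) in the 8 libraries (x), heterozygous in blue and knockout in red, for Lcn3, Lcn4, Obp2a and Obp2b, for 15 seromucous gland markers, for the 10 genes most like Lcn11 and for 6 olfactory supporting cell markers. Het 2 is the lowest in the first 2 panels and the highest in the last 2.

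The genes whose levels were most like the summed lipocalins were few and of low abundance. Among 11582 genes averaging 5 TPM or more, 15 (0.130%) had an r over 0.8 with the log2 sum over the 8 libraries, where the median gene had 0.11. The 10 highest were BC006965 (r = 0.95), Prom2 (0.94), Phlda1 (0.92), Sox10 (0.90), Derl3 (0.89), Cited4 (0.88), Tmigd1 (0.87), Bhlha15 (0.87), Gjb1 (0.86) and Azgp1 (0.86). Sox10 (a transcription factor of gland and neural crest lineages) stood at 8.65, 1.87, 5.50 and 10.6 TPM in the heterozygous and at 12.9, 7.61, 7.10 and 13.0 TPM in the knockout libraries. Bhlha15 (Mist1, a transcription factor of secretory cells) stood at 14.6, 6.14, 7.27 and 12.8 TPM and at 12.4, 15.6, 13.1 and 11.3 TPM. Derl3, which acts in the clearance of misfolded proteins from the endoplasmic reticulum, ranged from 6.89 to 32.5 TPM. The lists that hold these 3 genes had lower medians. Of 14 seromucous gland markers with a mean of at least 5 TPM, Sox10 and Bhlha15 were the 2 with an r over 0.8, the median was 0.32 and the range -0.18 (Lyz1) to 0.90 (Sox10), with Dmbt1 at 0.76, Wfdc18 at 0.63 and Ltf at 0.49. Derl3 is also on the plasma cell list, where the median was -0.35 over 5 genes and the other 4, Igha, Jchain, Igkc and Ighm, had 0.12, -0.35, -0.38 and -0.59. Of the 33 secretory route genes 0 had an r over 0.8, and their median was 0.24. All 10 were lowest in heterozygous replicate 2, and within the 7100s animals their r was 0.38 (Gjb1) to 0.86 (Prom2).

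The 3 genes least like the sum were Sult1b1 (r = -0.96), Cxcl13 (-0.92) and Tsga10 (-0.91). After median-ratio scaling these were -0.45, -0.73 and -0.47, whereas BC006965 and Prom2 stood at 0.97 and 0.95. Such r values come from 8 libraries that share 1 total each, and they are descriptions with no test.

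Beside the 5 members, 29 other lipocalins were found by gene symbol, and 15 passed the filter on low values. A lipocalin listed under another kind of symbol is not among them. Limma called 0 of them by genotype (0 unadjusted, 0 by limma-voom), with a median of -0.21 relative to the median gene. Obp1a, Obp1b and Mup4 were the most abundant of the 29, with relative log2 fold changes of -0.86 (SE 1.96), -0.68 (SE 1.96) and -1.24 (SE 1.88) and the pattern described beside Lcn11. Gm14744, also on the X chromosome, was outside this list and had a mean of 21438 TPM, above the 18687 TPM of Obp1a. Apod and Lcn2, by contrast, ranged from 149 to 226 TPM and from 39.4 to 178 TPM. Their r with Lcn11 was -0.80 and -0.72, close to the -0.78 of the median gene. Of the 9 lipocalins on this list with a mean of at least 5 TPM, 4 had an r over 0.8 with Lcn11 and 0 had one with the summed members.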

How the data were processed

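The authors deposited 1 table of TPM values with 1 column per library, and replicates were not pooled. The submitters' processing notes name Trim Galore 0.6.5, cutadapt 5.1, STAR 2.7.11b and deepTools 3.5.5 and the builds mm10 and GRCm38. The counting program is not given in the sources used here. Per the labels' protocols, extracts with an RNA integrity number above 7 gave polyadenylated, strand-specific libraries read as pairs of 150 bases.

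TPM keeps no depth. Reads were recovered from the steps between low values and GENCODE M21 exon lengths, for 27469 of 27532 genes. Between 97.6% and 98.2% of low values were whole within 0.02 reads, and totals were 17889116 to 26420258 reads. For a gene of 2 kb, 3 reads are 0.0916 to 0.163 TPM, which covers counting error only.

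The 20305 genes averaging 0.5 TPM or more were tested as log2(TPM + 0.5) with limma 3.58.1 (lmFit, eBayes with a trend) in R 4.3.3, with genotype and sex as terms, Benjamini-Hochberg adjustment over all genes and a threshold of 0.05. This scale understates changes of low genes. The code was tested on simulated data. Limma-voom on the recovered reads, added after the data had been seen, called 169 genes of 20270. Lcn11 was treated apart from the other members after its values had been seen. Correlations used SciPy 1.17.1, and alignments Biopython 1.88.

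The genes named are the members, in each list the called genes or some of the 3 most abundant, the 10 genes most and 3 least like the summed members, and Tex15. Others were chosen after their values were seen. The members and the lists were chosen with earlier results of these data known. Alternatives were other pseudocounts, filters, scalings, variance estimates, designs and sets of libraries.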

Additional observations from a re-analysis of the deposited data

How the results depend on the processing

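With 1 library left out at a time, the relative genotype fold change (log2) ran from -0.91 to 1.25 for Lcn3, -0.68 to 1.004 for Lcn4, -1.08 to 1.24 for Obp2a, -1.03 to 1.26 for Obp2b and -3.79 to 2.20 for Lcn11, so each changed sign. For Obp2a and Obp2b the sign turned without heterozygous replicate 2, heterozygous replicate 3 or knockout replicate 1, for Lcn3 and Lcn4 without heterozygous replicate 2 or knockout replicate 1, and for Lcn11 without heterozygous replicate 1 or 2. Lcn11 also turned to 0.14 with no sex term, 3.82 with animal series as a term, and 4.33 and 3.48 in the 7100s animals with and without the sex term. The 4.33 is the 1 setting in which 1 member was called by genotype, and no setting called a member by sex. The remaining settings (pseudocounts, filters, scalings, robust eBayes, limma-voom) kept every member's sign and called 0 members. Lcn13 and Lcn14 could not be fitted, having no row. The summed share differed by 3.26 percentage points, knockout minus heterozygous, and by 0.0414 to 6.36 with 1 library left out (the lowest without heterozygous replicate 2), 1.32 after median-ratio scaling and 3.09 in the 7100s animals.

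The median r of the 4 coupled genes (0.97) was 0.93 in the 7100s animals, 0.89 without the 2 farthest libraries and 0.91 to 0.98 with 1 library left out. That of Lcn11 with the others (0.04) was 0.48 after median-ratio scaling, 0.63 in the 7100s animals, 0.54 without the 2 farthest libraries and -0.11 to 0.69 with 1 library left out (the highest without heterozygous replicate 2). The median SD of the 4 (0.74) was 0.46 in the 7100s animals and 0.45 to 0.79 with 1 library left out. The SD of Lcn11 (2.72) was 2.43 in the 7100s animals, 3.05 after median-ratio scaling and 2.49 to 2.91 with 1 library left out. The cause was not tested.

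With library number as a replicate block, the fold changes were unchanged at 0.17 for Lcn3, 0.16 for Lcn4, 0.08 for Obp2a, 0.12 for Obp2b and -0.79 for Lcn11, 0 members were called and 128 genes were called in place of 119. Same-numbered libraries were not paired, since their deviations correlated at -0.06, 0.03, 0.10 and -0.0001. The count of genes called by genotype was 72 with no filter, 184 and 371 in the 7100s animals without and with the sex term, and 83 to 254 with 1 library left out. For sex, 10 genes were called, 178 in the 7100s animals, 22 with the replicate block and 11 to 91 with 1 library left out.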

Other observations

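The BPI fold proteins, a second family of secreted proteins of the nose with a pocket for hydrophobic molecules, had another order of libraries than the lipocalins. The 11 listed genes summed to 9385, 37497, 4234 and 10221 TPM in heterozygous replicates 1 to 4 and to 7268, 11558, 7077 and 12982 TPM in knockout replicates 1 to 4. Bpifa1, which made up most of this, stood at 34164 TPM in heterozygous replicate 2, the library with the least Lcn3, Lcn4, Obp2a and Obp2b, and Bpifb9b stood at 1926 TPM there. Limma called 0 of the 9 tested by genotype (1 at an unadjusted p under 0.05, 0 by limma-voom). Olfactory supporting cell markers also peaked in that library, with Cyp2a5 at 3056 TPM and Sult1c1 at 509 TPM, and erythrocyte markers summed to 20929 TPM there against 3900 to 14334 TPM elsewhere.

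The androgen-binding secretoglobins, small secreted proteins of glands and saliva, were the 1 list with calls by genotype. Limma called 14 of 28 higher in the knockout (21 at an unadjusted p under 0.05), with a median of 2.06 relative to the median gene, where 43 of all 20305 genes tested were called higher and 0.586% in either direction, and limma-voom on the recovered reads called 0. Scgb1b29 had a mean of 195 ± 85.1 TPM in the heterozygous and 1087 ± 709 TPM in the knockout libraries (SD, n = 4 each), 2.73 higher on the log2 scale relative to the median gene (SE 0.50, adjusted p = 0.00385 by limma, both of the fitted value). The groups overlapped, since knockout replicate 4 stood at 193 TPM and the heterozygous libraries at 83.8 to 281 TPM. The family's genes are near copies of each other, so the division of reads between them is uncertain. Of the 19 with a mean of at least 5 TPM, 0 had an r over 0.8 with the summed lipocalins and 2 had one with Lcn11, Scgb1b27 (0.86) and Scgb2b27 (0.87).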
